A study of Mus musculus with 18 samples.

Results

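Nsd1-KO and WT cells were compared at day 4 of differentiation, in 6 of the 18 RNA-seq libraries of the series: 2 of WT, 2 of the line KO-1 and 2 of the line KO-2. The libraries were chosen by their labels of genotype and day, and no measured value entered the choice. All cells were E14 mouse embryonic stem cells (mESCs), a line of blastocyst origin, grown with leukemia inhibitory factor (LIF) on mouse embryonic fibroblast feeders and then kept as a monolayer without either for 4 days. KO-1 and KO-2 were clones, each grown from 1 cell and homozygous for a CRISPR-Cas9 deletion of exon 5 of Nsd1, made in E14 cells whose Nsd1 alleles had received a 3×Flag tag, and whether the sequenced WT cells carried the tag is not given in the sources used here. The labels name the libraries of a line as biological replicates, so that p-values measure the spread between these cultures of 1 WT line and 2 clones. The WT libraries held 15479919 and 23921193 counts, those of KO-1 13772529 and 23362270, and those of KO-2 21184172 and 16489159. The other 12 libraries, of the same lines at day 0 and day 2, entered the model as further groups and served to place the day 4 levels in the course.

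Nsd1 is a methyltransferase that dimethylates histone H3 at lysine 36, a mark that antagonizes Polycomb and attracts the de novo DNA methyltransferases. On withdrawal of LIF, mESCs leave the naive state, pass through a formative state that resembles the early epiblast, and then respond to Nodal, Wnt, BMP and FGF signals by taking on a primitive streak programme, from which mesoderm and endoderm arise. Epiblast cells that receive little of these signals tend towards neuroectoderm. Genes of the germline are kept silent in such cells largely by DNA methylation and by repressors that bind their promoters.

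Nsd1 itself had 2425 and 2111 normalized counts in WT, 1103 and 910.1 in KO-1, and 575 and 684 in KO-2. Normalized counts are the counts recovered from the deposited values, divided by the size factor of each library. Every KO value was below those of WT, with KO-2 below KO-1, and the mean was 2.77-fold lower in KO (-1.06 ± 0.11, SE, on the log2 scale of the deposited values, adjusted p = 1.47e-07, limma). The count of a gene covers all its exons, and exons outside the deleted one still gave reads, so the value follows the label but does not measure the loss of the protein.

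The labels call all libraries mouse embryonic stem cells, and markers of these cells were present in both groups. Pou5f1, the central pluripotency factor, had 5468 and 5366 normalized counts in WT, 3252 and 3627 in KO-1, and 3755 and 3515 in KO-2. Sall4, another stem cell factor, had 5486 and 5049 normalized counts in WT, 7322 and 5984 in KO-1, and 4883 and 5493 in KO-2. The Pou5f1 values were lower in every KO library without reaching the size threshold, and the Sall4 values overlapped between the groups. The WT libraries also held the mesendoderm markers in large amounts. T (brachyury), the streak factor, had 16441 and 16055 normalized counts in WT, 209.7 and 226 in KO-1, and 60.2 and 62.9 in KO-2. Eomes, a T-box factor of the streak and endoderm, had 5793 and 5481 normalized counts in WT, 576 and 574 in KO-1, and 232 and 279 in KO-2. The WT libraries thus held Pou5f1 and Sall4 together with mesendoderm markers, and the KO libraries far less of the latter. The stem cell markers Sox2 and Zfp42, given below, differed from Pou5f1 and Sall4. Both were low in WT and higher in every KO library. In bulk libraries, fewer cells of a type and less RNA per cell cannot be told apart, and this applies to each result given here.

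Of 20703 genes tested, 1569 (7.58%) were called different at day 4 by limma on the deposited values, with thresholds of 0.01 for the adjusted p and 0.58 for the size of the log2 difference. Called higher in KO were 760 genes (3.67%) and called lower 809 (3.91%). The 2 directions were thus close to equal in number, and the median difference over all genes was 0. The groups did not overlap for 759 of the 760 and for 809 of the 809, while over all genes the KO values were entirely above those of WT for 23.9% and entirely below for 25.9%. The deposited values compress differences of weakly expressed genes, since a count of 0 sits at 8.36 on their scale. On the counts recovered from them, limma-voom called 2266 genes higher (10.9%) and 2691 lower (13%), including 757 of the 760 and 809 of the 809. Folds below are therefore ratios of mean normalized counts, and the log2 differences with their standard errors are on the compressed scale.

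The 20 transcription factors of the meso-endoderm that the study chose on these samples were lower in all 4 KO libraries in 20 of 20 cases, with 13 called lower and none higher (20 lower and none higher by limma-voom). Their count is no independent evidence of direction, and they were left out of all lists that follow.

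On the deposited log2 scale, which compresses weakly expressed genes, the largest fall among all other genes was that of Igfbp3, which encodes a secreted binding protein of insulin-like growth factors. Igfbp3 (ENSMUSG00000020427) had 24051 and 22280.4 normalized counts in WT, 963 and 1166 in KO-1, and 757 and 758 in KO-2. Every KO library was far below WT, 25.4-fold on average (-4.00 ± 0.09, SE, adjusted p = 1.74e-18, limma). Krt19 (ENSMUSG00000020911), a keratin of simple epithelia, had 7109 and 6967 normalized counts in WT, 83.4 and 97.4 in KO-1, and 79.8 and 70.2 in KO-2, an 85.1-fold difference. Hmga2 (ENSMUSG00000056758), an architectural chromatin protein that appears as pluripotent cells differentiate, had 3803 and 3884 normalized counts in WT, 167 and 159 in KO-1, and 266 and 259 in KO-2. For both genes the groups lay far apart, and KO-2 was the higher clone for Hmga2. Alox15 (ENSMUSG00000018924), a lipoxygenase that oxidizes arachidonic acid, had 3985 and 3904 normalized counts in WT, 129 and 163 in KO-1, and 134 and 98.5 in KO-2. Slc16a10 (ENSMUSG00000019838), a transporter of aromatic amino acids, had 2499.6 and 2483 normalized counts in WT, 76.7 and 66.7 in KO-1, and 39.2 and 51.1 in KO-2. Sfn (ENSMUSG00000047281), a 14-3-3 protein of epithelial cells, had 13632 and 13017 normalized counts in WT, 1646 and 2053 in KO-1, and 1871 and 1803 in KO-2. In none of the 3 did a KO library reach the lower of the WT libraries.

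**Figure D1:**
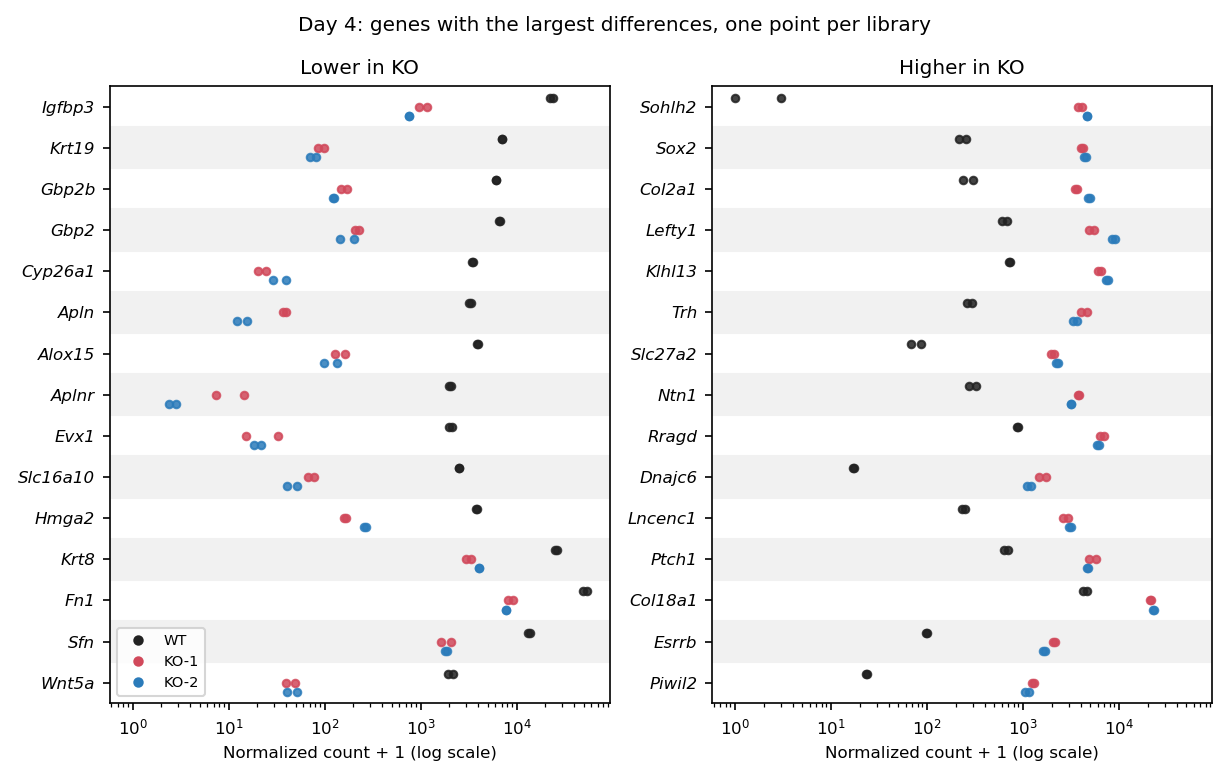
Normalized counts plus 1 (log axis) in each of the 6 day 4 libraries for the 15 genes with the largest falls and the 15 with the largest rises on the deposited log2 scale, leaving out the 20 factors of the study; black, red and blue points are WT, KO-1 and KO-2. The genes were chosen among those with no overlap of the groups, so that in all 30 the 4 KO points lie on one side of both WT points. Sohlh2 is near 0 in WT, and Lefty1 is higher in KO-2 than in KO-1.

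Genes of the primitive streak were the list with the largest share of falls. Of 22 members, 16 were called lower and 1 higher (19 and 2 by limma-voom), and the KO values were entirely below WT for 19. The median difference of the list was -1.11 on the log2 scale, against 0 over all genes. The pair of Apln, the peptide ligand apelin, and Aplnr, its receptor on early mesoderm, fell together. Apln (ENSMUSG00000037010) had 3205 and 3351 normalized counts in WT, 38.3 and 35.9 in KO-1, and 11.2 and 14.6 in KO-2. Aplnr (ENSMUSG00000044338) had 1978 and 2051 normalized counts in WT, 13.5 and 6.41 in KO-1, and 1.4 and 1.82 in KO-2. Both were abundant in WT and low in KO, with KO-1 above KO-2, and their mean levels were 131 and 348 times lower in KO. Evx1 (ENSMUSG00000005503), a homeobox factor of the posterior streak, had 1989 and 2125 normalized counts in WT, 31.6 and 14.1 in KO-1, and 17.5 and 21.0 in KO-2. Sp5, a direct target of Wnt signalling, had 5716 and 5687 normalized counts in WT, 992 and 1289 in KO-1, and 1490.2 and 1223 in KO-2. Sp5 therefore kept a level in KO that was 4.57-fold below WT, whereas Evx1 was 97.8-fold below. In WT, none of these was abundant at day 2: mean normalized counts were 90.2 for Apln, 0 for Aplnr, 1.63 for Evx1 and 14.6 for Sp5.

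The list of presomitic and paraxial mesoderm fell in part. Of 23 measured members 4 were called lower and 1 higher, with 10 lower and 2 higher by limma-voom, and a median difference of -0.16. Cyp26a1 (ENSMUSG00000024987), which degrades retinoic acid in the tail bud and the anterior epiblast, had 3446 and 3532 normalized counts in WT, 23.7 and 19.2 in KO-1, and 28.0 and 38.3 in KO-2. The KO libraries were 128-fold lower on average and did not approach WT. Rspo3, an enhancer of Wnt signalling, had 776 and 729 normalized counts in WT, 14.7 and 17.3 in KO-1, and 6.3 and 14.6 in KO-2. Wnt3a, the Wnt ligand of the tail bud, had 138 and 173 normalized counts in WT, 0 and 0 in KO-1, and 2.8 and 1.82 in KO-2. Both were nearly absent in KO. Tcf15 was the member called higher: this basic helix-loop-helix factor of somites, which is also expressed by pluripotent cells primed to differentiate, had 123 and 139 normalized counts in WT, 422 and 454 in KO-1, and 804 and 741 in KO-2. Its KO libraries all exceeded WT, and those of KO-2 exceeded those of KO-1.

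Of 23 members of lateral and cardiac mesoderm, 6 were called lower and none higher, with 12 lower and 2 higher by limma-voom, and the 4 KO libraries below WT for 16. Bmp2, a BMP ligand, had 807 and 755 normalized counts in WT, 9.02 and 3.85 in KO-1, and 7 and 5.47 in KO-2. Bmp4, the ligand that induces posterior mesoderm, had 616 and 717 normalized counts in WT, 27.1 and 22.4 in KO-1, and 39.9 and 53.8 in KO-2. Isl1, a LIM-homeobox factor of cardiac progenitors, had 217 and 227 normalized counts in WT, 6.77 and 2.56 in KO-1, and 4.2 and 10.9 in KO-2. Each group of KO libraries lay far below WT. Actc1, cardiac actin, had 519 and 576 normalized counts in WT, 74.4 and 99.982 in KO-1, and 44.8 and 49.2 in KO-2, with KO-2 the lowest. Of 25 genes of blood and endothelium, 4 were called lower and 2 higher, against 7 lower and 8 higher by limma-voom, and they did not share a direction. Kdr, the receptor of vascular endothelial growth factor on mesodermal progenitors, had 990.2 and 929 normalized counts in WT, 216 and 170.5 in KO-1, and 235 and 233 in KO-2. Ets1, an ETS factor of endothelium, had 658 and 672 normalized counts in WT, 97.0 and 70.5 in KO-1, and 95.9 and 63.8 in KO-2. Tek, the receptor of angiopoietins, had 32.2 and 26.5 normalized counts in WT, 1002 and 952 in KO-1, and 857 and 1004 in KO-2. Eng, endoglin, a co-receptor of TGF-beta, had 353 and 316 normalized counts in WT, 1217 and 1309 in KO-1, and 1563 and 1371 in KO-2. Kdr and Ets1 were thus 4.49 and 8.13 times lower in KO and Tek and Eng 32.5 and 4.08 times higher, with no overlap of the groups in any of the 4.

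Endoderm genes were split in the same way. The list of definitive endoderm, node and anterior mesendoderm had 4 members called lower and 3 higher of 20 (8 and 7 by limma-voom). Tmprss2, a transmembrane serine protease of endodermal epithelia, had 683 and 690.1 normalized counts in WT, 0 and 3.85 in KO-1, and 7 and 1.82 in KO-2. Krt19, given above, was the other large fall of the list. Lefty1 and Trh rose and are described with the genes gained. In the extraembryonic endoderm list, 3 of 20 were called lower and 2 higher (7 and 4 by limma-voom). Of its members, Col4a1 and Sparc were lower in every KO library. Col4a1, a chain of type IV collagen, had 3331 and 3235 normalized counts in WT, 802 and 714 in KO-1, and 665 and 788 in KO-2. Sparc, a matrix protein, had 9312 and 9314 normalized counts in WT, 3472 and 3939.7 in KO-1, and 5043 and 5009 in KO-2. The defining marker Sox7 had 12.1 and 8.84 normalized counts in WT, 9.02 and 5.13 in KO-1, and 5.6 and 3.65 in KO-2, and Afp, alpha-fetoprotein, had 19.12 and 0 normalized counts in WT, 0 and 8.97 in KO-1, and 4.9 and 0 in KO-2, all close to 0. The Hox list was little expressed, and 2 of 32 genes were called lower and none higher, against 3.91% and 3.67% of all genes. By limma-voom 8 were called lower and 2 higher, against 13% and 10.9% of all genes. Hoxb1, the hindbrain and posterior streak member of the cluster, had 232 and 253 normalized counts in WT, 0 and 0 in KO-1, and 0 and 1.82 in KO-2, a ratio of 609 for WT over KO, here of total counts over summed size factors and not of means, with a counting interval of 168 to 5037 from 2 reads in all KO libraries together (95%, Clopper-Pearson, counting error only).

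Genes of the Wnt, FGF and BMP pathways were called lower more often than higher. Of 48 Wnt genes, 13 were called lower and 6 higher (23 and 9 by limma-voom). Wnt5a (ENSMUSG00000021994), a ligand of the non-canonical pathway that acts in gastrulation movements, had 2152 and 1928 normalized counts in WT, 38.3 and 48.1 in KO-1, and 39.9 and 51.1 in KO-2. Wnt6, a further ligand, had 1945 and 2086 normalized counts in WT, 83.4 and 106 in KO-1, and 116 and 99.4 in KO-2. In both, WT was well above every KO library, by 46.0 and 19.9 times on average. Of the members outside the 4 largest differences, chosen after their values were seen, Wnt3, the ligand that starts streak formation, had 2097 and 2106 normalized counts in WT, 851 and 996 in KO-1, and 981 and 929 in KO-2. Lef1, the nuclear effector of the pathway, had 1078 and 1022 normalized counts in WT, 439 and 408 in KO-1, and 367 and 331 in KO-2. Sfrp2, a secreted Wnt antagonist, had 117 and 134 normalized counts in WT, 1026 and 1227 in KO-1, and 1312 and 1176 in KO-2 and was among those called higher. Wnt3 and Lef1 were thus 2.24 and 2.72 times lower in KO and Sfrp2 9.44 times higher.

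Of 27 genes of FGF and ERK signalling, 8 were called lower and 3 higher (10 and 5 by limma-voom). Dusp4, a phosphatase that ERK activity induces and that turns ERK off, had 9909 and 9768 normalized counts in WT, 1584 and 1664 in KO-1, and 1751 and 1854 in KO-2. Dusp6, another such phosphatase, had 7389 and 7449 normalized counts in WT, 1784 and 1769.5 in KO-1, and 2598 and 2334 in KO-2. Fgf8, the ligand of the streak, had 2153 and 2307 normalized counts in WT, 549 and 672 in KO-1, and 679 and 607 in KO-2. The KO libraries lay below WT in all 3. Of 25 BMP genes, 6 were called lower and 1 higher (12 and 4 by limma-voom). Nog, the BMP antagonist noggin, had 402 and 482 normalized counts in WT, 11.3 and 11.5 in KO-1, and 23.8 and 15.5 in KO-2, so that a ligand pair (Bmp2, Bmp4) and its antagonist were low together in KO. Smad7, an inhibitory Smad, had 507 and 532 normalized counts in WT, 1804 and 1678 in KO-1, and 1506 and 1602 in KO-2 and was the BMP gene called higher.

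Nodal signalling genes went both ways, with 4 lower and 4 higher of 20 (7 and 5 by limma-voom). Nodal, the ligand, had 1825 and 1891 normalized counts in WT, 2252 and 2408 in KO-1, and 2253 and 2254 in KO-2 and was not called. Its antagonist Lefty1 was 10.8-fold higher in KO. Tdgf1 (Cripto), the co-receptor of Nodal, had 8091 and 8556 normalized counts in WT, 3484 and 3714 in KO-1, and 3629 and 3741 in KO-2. Fst, follistatin, which binds activin, had 3626 and 3585 normalized counts in WT, 1005 and 893 in KO-1, and 582 and 585 in KO-2. Gdf3, a TGF-beta family ligand of pluripotent cells, had 119 and 131 normalized counts in WT, 850.2 and 872 in KO-1, and 1023 and 1039 in KO-2. Tdgf1 and Fst were lower and Gdf3 higher in every KO library. The LIF and STAT3 list, of the pathway that holds mESCs in self-renewal, had no common direction, with 4 of 14 called higher and 2 lower, against 4 higher and 5 lower by limma-voom. Lifr, the LIF receptor, had 245 and 196 normalized counts in WT, 1072 and 931 in KO-1, and 654 and 814 in KO-2. Klf5, a Krüppel-like factor downstream of LIF, went the other way with 2393 and 2308 normalized counts in WT, 828 and 730.0 in KO-1, and 592 and 589 in KO-2. Klf4, its relative, had 103 and 112 normalized counts in WT, 755 and 788 in KO-1, and 454 and 418 in KO-2 and was higher in KO.

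**Figure D2:**
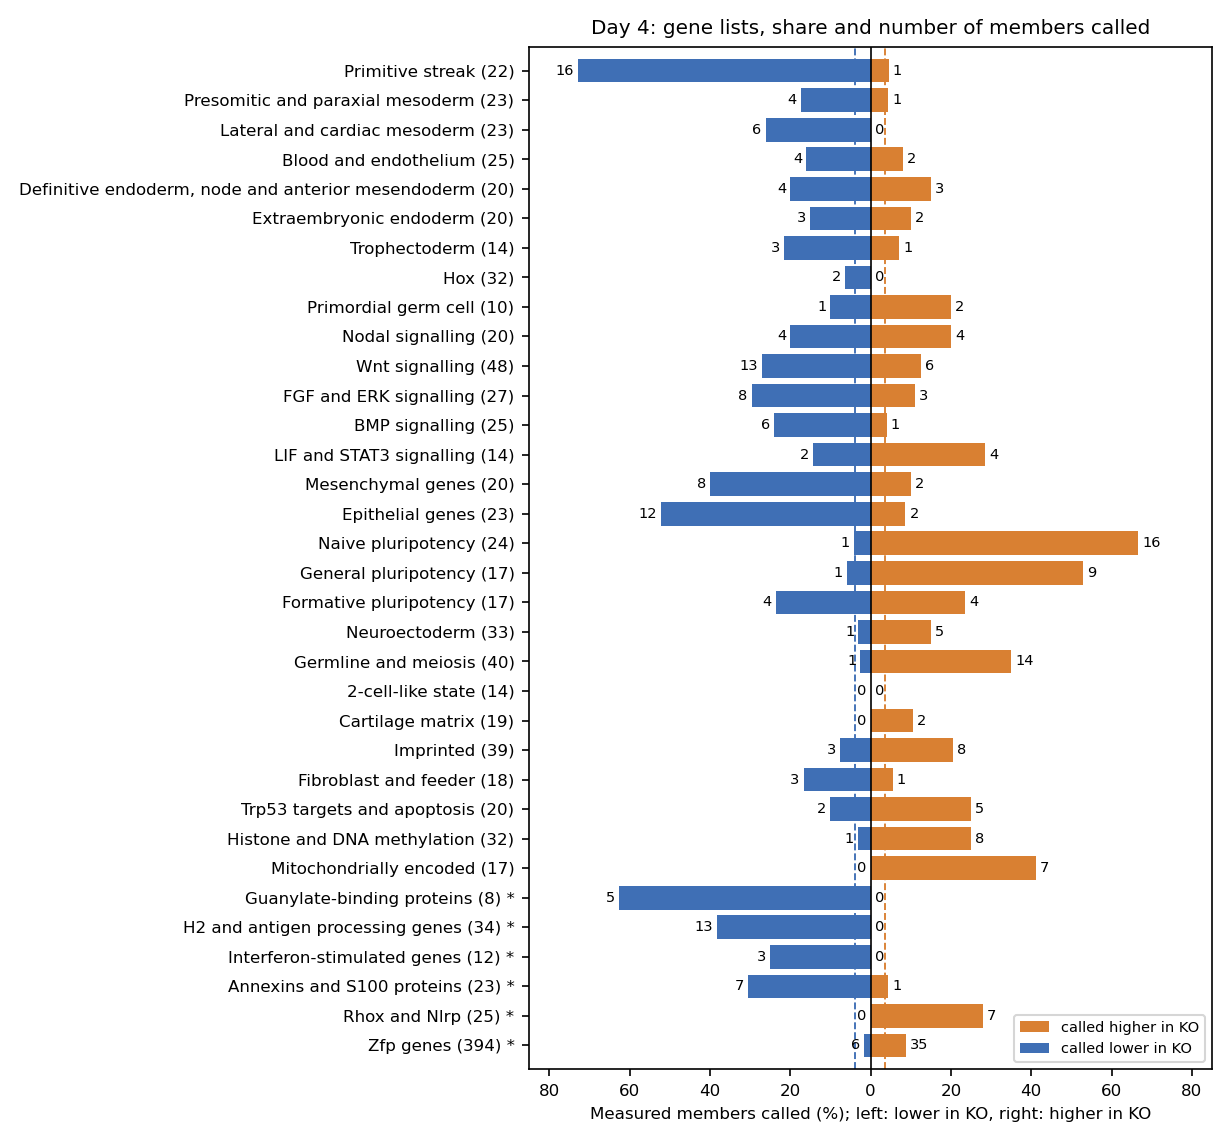
Share of the measured members (in parentheses after each name) of 34 gene lists that were called lower (blue, left) or higher (orange, right) in KO at day 4, with the number called at the end of each bar; dashed lines mark the shares over all 20703 genes, 3.91% lower and 3.67% higher. Primitive streak genes lead the falls among the lists that were not added after values were seen (* marks those that were), and naive pluripotency genes the rises, by share.

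The epithelial and the mesenchymal list both had more members called lower than higher. Of 23 epithelial genes, 12 were called lower, 2 higher and 9 were not called (17 lower and 2 higher by limma-voom), with a median of -0.62. Krt8 (ENSMUSG00000049382), the keratin that pairs with Krt18 in simple epithelia, had 26277 and 24930.4 normalized counts in WT, 2964 and 3328 in KO-1, and 4048 and 4101 in KO-2. Krt18 had 9510.4 and 9638 normalized counts in WT, 1780.4 and 1777 in KO-1, and 2469 and 2509 in KO-2. Dsp, desmoplakin of desmosomes, had 12593 and 11029 normalized counts in WT, 2085 and 1919.5 in KO-1, and 1226 and 1394 in KO-2. KO-1 was the lower clone for both keratins and KO-2 for Dsp. Of 20 mesenchymal genes, 8 were called lower, 2 higher and 10 were not called (10 lower and 4 higher by limma-voom), with a median of -0.24. Fn1 (ENSMUSG00000026193), fibronectin, had 54170.4 and 49015 normalized counts in WT, 9136 and 8054 in KO-1, and 7756 and 7707 in KO-2. Vim, vimentin of intermediate filaments, had 20914 and 19209 normalized counts in WT, 4101 and 3903 in KO-1, and 5569.7 and 5919 in KO-2. Tgfb1, a TGF-beta ligand, had 1899.9 and 1851 normalized counts in WT, 184 and 226 in KO-1, and 218 and 197 in KO-2. In each, WT stood clear of all KO libraries. Ccn1, a matrix-associated signalling protein, had 6909 and 6723 normalized counts in WT, 1126 and 1479 in KO-1, and 1699 and 1643 in KO-2. The cadherins mark the 2 programmes and were named as defining members. Cdh1 (E-cadherin) had 12757 and 12090.1 normalized counts in WT, 9047 and 9254 in KO-1, and 6781 and 6635 in KO-2. Cdh2 (N-cadherin) had 6682 and 6233 normalized counts in WT, 3587 and 3131 in KO-1, and 3732 and 3858 in KO-2. Both were lower in KO, by 1.57 and 1.81 times.

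Some genes of interferon response and antigen presentation were among those called lower, which led to 3 lists made after their values were seen. The members that led to them were Gbp2b and Gbp2, guanylate-binding proteins that act in defence against intracellular pathogens and followed Igfbp3 and Krt19 in size on the deposited log2 scale, though not by fold. Gbp2b (ENSMUSG00000040264) had 6149 and 6126 normalized counts in WT, 169 and 148 in KO-1, and 122 and 126 in KO-2. Gbp2 (ENSMUSG00000028270) had 6600.2 and 6696 normalized counts in WT, 206 and 229 in KO-1, and 143 and 202 in KO-2. The KO libraries were 43.5 and 34.1 times lower, and reads of such close relatives may be shared between them. Of 8 measured members of the family, 5 were called lower and none higher (8 and 0 by limma-voom). Of 34 genes that are named H2 or act in antigen processing, which include class II loading genes and pseudogenes beside those of class I, 13 were called lower, none higher and 21 were not called, against 26 lower and 2 higher by limma-voom. Tapbp (tapasin), which loads peptides onto MHC class I, had 6037 and 5532 normalized counts in WT, 1063 and 1070.3 in KO-1, and 1118 and 1066 in KO-2. Psmb8, a subunit of the immunoproteasome, had 543 and 611 normalized counts in WT, 20.3 and 23.1 in KO-1, and 13.3 and 10.0 in KO-2. H2-K1, a classical class I heavy chain, had 2557 and 2716 normalized counts in WT, 618 and 753 in KO-1, and 727 and 759 in KO-2. B2m, the light chain of class I, had 975 and 1053 normalized counts in WT, 509.7 and 411 in KO-1, and 652 and 607 in KO-2, lower in each KO library but under the size threshold. Irf1, a factor that drives such genes, had 2528 and 2699.9 normalized counts in WT, 449.9 and 496 in KO-1, and 539.7 and 529.9 in KO-2, and of 12 interferon-stimulated genes 3 were called lower, none higher and 9 were not called (7 lower and none higher by limma-voom). Among annexins and S100 proteins, a further list made after values were seen, 7 of 23 were called lower and 1 higher (13 and 1 by limma-voom). Anxa5, which binds phosphatidylserine, had 2345 and 2377 normalized counts in WT, 214 and 238 in KO-1, and 372 and 366 in KO-2, and Anxa11 was the member called higher, with 699 and 695 normalized counts in WT, 2174 and 2337 in KO-1, and 2638 and 2547 in KO-2.

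In the other direction, the lists of naive and general pluripotency had the largest shares of members called higher. Of 24 naive genes, 16 were called higher and 1 lower (21 and 2 by limma-voom), the KO values were entirely above WT for 21, and the median was 0.82 on the log2 scale. The summed level of the list was 8443 and 8538 normalized counts in WT, 25979 and 26503 in KO-1, and 24038 and 23432 in KO-2. Sox2 (ENSMUSG00000074637), partner of Pou5f1, had 253 and 217 normalized counts in WT, 4083 and 4208 in KO-1, and 4546 and 4337 in KO-2. Esrrb (ENSMUSG00000021255), an orphan nuclear receptor of the naive network, had 96.6 and 99.8 normalized counts in WT, 2182 and 2064 in KO-1, and 1707 and 1631 in KO-2. The KO levels were 18.3 and 19.3 times those of WT. In the stem cells of day 0, KO means were 11527 for Sox2 and 13568 for Esrrb, and at day 4 they were 4293 and 1896, so that KO too stood below its starting level. Klf2, a Krüppel-like factor, had 92.6 and 89.7 normalized counts in WT, 1370.0 and 1745 in KO-1, and 1553 and 1411 in KO-2. Zfp42 (Rex1), a standard naive marker, had 322 and 303 normalized counts in WT, 1998 and 1953 in KO-1, and 1986 and 1978 in KO-2. Lncenc1 (ENSMUSG00000078952), a long noncoding RNA of mESCs, had 233 and 249 normalized counts in WT, 2953 and 2613 in KO-1, and 3046 and 3137 in KO-2. In each of these the groups did not overlap.

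Of 17 genes of general pluripotency, 9 were called higher and 1 lower (9 and 2 by limma-voom). Dnmt3l, the cofactor of the de novo methyltransferases, had 1227 and 1185 normalized counts in WT, 4942 and 5628 in KO-1, and 8645 and 8217 in KO-2. Utf1, a chromatin-bound factor of pluripotent cells, had 551 and 557 normalized counts in WT, 1707 and 2462 in KO-1, and 3632 and 3008 in KO-2. Dppa2, which with Dppa4 keeps developmental promoters open, had 289.8 and 267 normalized counts in WT, 1403 and 1391 in KO-1, and 2108 and 1959.9 in KO-2. Dppa4 had 218 and 282 normalized counts in WT, 1078 and 1174 in KO-1, and 1509 and 1424 in KO-2. In all of them KO-2 was the higher clone, and Dnmt3l differed between the clones by the clone test. The formative list had no common direction, with 4 called higher and 4 lower of 17 (6 and 4 by limma-voom). Dnmt3b, a de novo DNA methyltransferase that rises strongly in formative cells, had 5919 and 5640.3 normalized counts in WT, 21062 and 20040 in KO-1, and 17612 and 18055 in KO-2. Dnmt3a, the other such enzyme, had 2444 and 2228 normalized counts in WT, 7095 and 6679.6 in KO-1, and 5848 and 6189.9 in KO-2. Sall2, a zinc finger factor, had 545 and 546 normalized counts in WT, 2913 and 2827 in KO-1, and 2579 and 2468 in KO-2. Foxd3, a forkhead factor of the epiblast, had 17.1 and 13.9 normalized counts in WT, 322 and 391 in KO-1, and 512 and 471 in KO-2. These 4 were higher in each KO library. Of the markers that define the state, the ligand Fgf5 had 1102 and 1119 normalized counts in WT, 631 and 663 in KO-1, and 239 and 246 in KO-2. The homeobox factor Otx2 had 258 and 200.2 normalized counts in WT, 448 and 501 in KO-1, and 207 and 248 in KO-2. The POU factor Pou3f1 had 1867 and 1685 normalized counts in WT, 1388 and 1611 in KO-1, and 1518 and 1530.4 in KO-2. Fgf5 was lower in KO, and most so in KO-2, while the other 2 were not called.

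The list of histone and DNA methylation enzymes had 8 of 32 called higher and 1 lower (8 and 1 by limma-voom). Tet1, a dioxygenase that oxidizes methylated cytosine, had 1217 and 989 normalized counts in WT, 4021 and 3146 in KO-1, and 1904 and 2088 in KO-2, with KO-1 above KO-2. The other methyltransferases of histone H3 lysine 36 are named as defining members. Nsd2 had 2642 and 2587 normalized counts in WT, 5205 and 4554 in KO-1, and 3869 and 4189.8 in KO-2. Nsd3 had 871 and 744 normalized counts in WT, 886 and 892 in KO-1, and 735 and 714 in KO-2. Setd2, which trimethylates the residue, had 2779 and 2408 normalized counts in WT, 4027 and 3303 in KO-1, and 2577 and 2663 in KO-2. Nsd2 was called higher, 1.7-fold, and the values of the other 2 overlapped between the groups and were not called.

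The largest rise of all was in a germline gene. Sohlh2 (ENSMUSG00000027794), a basic helix-loop-helix factor of spermatogonia and oocytes, had 2.01 and 0 normalized counts in WT, 3749 and 4157 in KO-1, and 4668 and 4698 in KO-2. The WT libraries held 2 reads in all, and the ratio of pooled counts, each group's total over its summed size factors, was 5607 for KO over WT with a counting interval of 1552 to 46298 (95%, Clopper-Pearson, counting error only). Of 40 measured germline and meiosis genes, 14 were called higher and 1 lower, with 23 higher and 2 lower by limma-voom and the 4 KO libraries above WT for 29. Piwil2 (ENSMUSG00000033644), a PIWI protein that carries small RNAs against transposons, had 22.1 and 22.7 normalized counts in WT, 1292 and 1243 in KO-1, and 1055 and 1150.0 in KO-2. Rpl10l, a ribosomal protein gene of the testis that is a retrogene and may share reads with its parent Rpl10, had 20.1 and 13.9 normalized counts in WT, 647 and 789 in KO-1, and 1233 and 1192 in KO-2. Ddx4 (Vasa), an RNA helicase of germ cells, had 237 and 250.04 normalized counts in WT, 1536 and 1317 in KO-1, and 1301 and 1388 in KO-2. Ddx4, Stk31, Hormad1 and Slc25a31, named for their promoters below, were all higher in each KO library. Stk31 had 18.1 and 6.31 normalized counts in WT, 346 and 297 in KO-1, and 328 and 332 in KO-2. Hormad1, a component of the meiotic chromosome axis, had 0 and 0 normalized counts in WT, 106 and 113 in KO-1, and 149 and 159 in KO-2, at least 53.7-fold higher in KO against a floor of 3 counts per library. Tdrd5 was the member called lower, a Tudor protein that acts in the piRNA pathway, with 517 and 486 normalized counts in WT, 41.7 and 30.8 in KO-1, and 20.3 and 20.1 in KO-2. Of 10 primordial germ cell genes, 2 were called higher and 1 lower (6 and 1 by limma-voom). Dppa3 (Stella), a maternal and germ cell factor, had 0 and 6.31 normalized counts in WT, 268 and 297 in KO-1, and 272 and 242 in KO-2. Ifitm3 (Fragilis) was called lower, with 957 and 1140.3 normalized counts in WT, 186 and 231 in KO-1, and 431 and 372 in KO-2. Of 14 genes of the 2-cell-like state, none was called in either direction by limma or by limma-voom, and 1 had an unadjusted p under 0.05 in each. The members named by size held few reads in all day 4 libraries.

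Promoters of germline genes are often bound at an E-box with the letters CACGTG, and the sequence was read for the genes of the list from RefSeq promoters of 250 bases before to 50 after the start, on GRCm38.p6 (the count data used mm39). A promoter was found for 36 of the 40 genes, and 18 (50%) held CACGTG on either strand, against 7.15% of all 32851 promoters in the table and 10.98% of the 13452 measured genes with one. The motif is its own reverse complement, so that both strands give the same match. Of the 11 genes with a promoter among the 14 called higher, 5 held the motif, and the motif was also present in genes of the list that were not called. The 5 are shown, since they are the called genes in which the motif was found, as 30 bases around it with the motif in capitals, 5′ to 3′ on the strand of the gene.
Ddx4 (chr13:112652322-112652351, minus strand): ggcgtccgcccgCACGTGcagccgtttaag
Dnmt3l (chr10:78049786-78049815, plus strand): cactcctcccctCACGTGctgggctcctta
Hormad1 (chr3:95559608-95559637, plus strand): caaagggtgcgcCACGTGccagtgacagtt
Slc25a31 (chr3:40708766-40708795, plus strand): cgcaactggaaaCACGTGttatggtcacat
Stk31 (chr6:49395472-49395501, plus strand): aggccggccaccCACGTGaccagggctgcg
All windows begin upstream of the annotated start, and a match is a description of the letters and not of a bound site. Over all genes called higher, 11.4% of those with a promoter held the motif, and over all called lower 10.1%. The E2F letters GGCGGGAA, searched on both strands, were in 4 of the 11 called germline genes and 5 of the 36 in the list, against 4.33% of measured genes.

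Of 25 Rhox and Nlrp genes, a list made after values were seen, 7 were called higher, none lower and 18 were not called (10 higher and 1 lower by limma-voom). In the list, 5 were called higher at day 0 and 6 at day 2, and none was further higher at day 4 than at day 2. Rhox1, a homeobox gene of the reproductive cluster on the X chromosome, had 0 and 0 normalized counts in WT, 174 and 231 in KO-1, and 342 and 292 in KO-2, at least 106-fold higher by the same floor. At days 0, 2 and 4 Rhox1 averaged 219, 226 and 260 in KO and 26.4, 9.76 and 0 in WT. Its KO mean was thus of similar size on each day, and its WT mean was lower at each later day. Nlrp9b, of a family expressed in oocytes, had 86.5 and 99.8 normalized counts in WT, 1086 and 987 in KO-1, and 849 and 745 in KO-2. Of 394 genes that share the name Zfp and a number, a set chosen after values were seen that is not a single family, 35 were called higher, 6 lower and 353 were not called, with 95 higher and 26 lower by limma-voom and a median of 0.08. Zfp981, a zinc finger gene of a repeated family in which reads can be shared, had 72.5 and 61.9 normalized counts in WT, 1462 and 882 in KO-1, and 1500.0 and 1831 in KO-2. Its KO-1 libraries differed from each other, and all exceeded WT.

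Neural genes were called higher more often than lower. Of 33 neuroectoderm genes, 5 were called higher and 1 lower, with 10 and 2 by limma-voom. The count was no larger than on the earlier days, with 6 called higher and none lower at day 0, and 6 higher and 2 lower at day 2. By the test of the difference between the days, 4 were further higher at day 4 than at day 2 and 1 further lower. Ntn1 (ENSMUSG00000020902), netrin, a guidance protein that in stem cells is linked to self-renewal, had 327 and 277 normalized counts in WT, 3799.9 and 3808 in KO-1, and 3147 and 3198 in KO-2. Sox1, the earliest neuroectoderm marker, had 6.04 and 0 normalized counts in WT, 505 and 520.4 in KO-1, and 705 and 662 in KO-2. Tubb3, neuronal beta-tubulin, had 479 and 532 normalized counts in WT, 1473 and 1659 in KO-1, and 1952 and 1865 in KO-2. Nes, nestin, a filament of neural progenitors, was the member called lower, with 5624 and 5247 normalized counts in WT, 2309 and 2162 in KO-1, and 1252 and 1334 in KO-2. Sox1 was close to 0 in WT and between 505 and 705 in KO. Pax6, the defining neural factor, had 0 and 1.89 normalized counts in WT, 78.9 and 49.4 in KO-1, and 26.6 and 32.8 in KO-2. Its level was low in all libraries but above WT in every KO library. Pax6 was not called by limma on the deposited scale, which compresses weakly expressed genes.

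Several of the largest rises were genes outside the pluripotency and germline lists. Col2a1 (ENSMUSG00000022483), the main collagen of cartilage, had 299.9 and 236 normalized counts in WT, 3671 and 3471 in KO-1, and 4964 and 4784 in KO-2. Of 19 cartilage matrix genes it was 1 of 2 called higher, and none was called lower, against 6 higher and 4 lower by limma-voom. Col18a1 (ENSMUSG00000001435), a basement membrane collagen, had 4649 and 4234 normalized counts in WT, 21596 and 20884 in KO-1, and 22909.5 and 23116 in KO-2. Ptch1 (ENSMUSG00000021466), the Hedgehog receptor that is also a target of the pathway, had 697 and 629.5 normalized counts in WT, 5769.8 and 4940.1 in KO-1, and 4611 and 4766 in KO-2. The groups did not overlap in any. Lefty1 (ENSMUSG00000038793) had 613 and 683 normalized counts in WT, 4929 and 5466 in KO-1, and 9033 and 8587 in KO-2. KO-2 exceeded KO-1 for Lefty1, and both exceeded WT. Trh (ENSMUSG00000005892), which encodes thyrotropin-releasing hormone, had 262 and 295 normalized counts in WT, 3989 and 4634 in KO-1, and 3627 and 3349 in KO-2. Klhl13 (ENSMUSG00000036782), an adaptor of a ubiquitin ligase encoded on the X chromosome, had 734 and 722 normalized counts in WT, 6495 and 6052 in KO-1, and 7334 and 7700.2 in KO-2. Slc27a2 (ENSMUSG00000027359), an acyl-CoA synthetase for very long chain fatty acids, had 86.5 and 68.2 normalized counts in WT, 2109.7 and 1975 in KO-1, and 2330.2 and 2206 in KO-2. None of the KO libraries overlapped with WT in these 3. Rragd (ENSMUSG00000028278), a GTPase that recruits the kinase complex mTORC1 to the lysosome, had 865 and 893 normalized counts in WT, 6959 and 6357 in KO-1, and 5979.9 and 6239 in KO-2. Dnajc6 (ENSMUSG00000028528), auxilin, which uncoats clathrin vesicles, had 16.1 and 16.4 normalized counts in WT, 1758 and 1466 in KO-1, and 1203 and 1093 in KO-2. The largest fold of these was that of Dnajc6, 84.9 times, on a WT level of about 16 normalized counts.

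Markers of other cells were examined beside these results. Trophectoderm had 3 genes called lower and 1 higher of 14 (6 and 3 by limma-voom). Cdx2, a caudal homeobox factor that the streak also expresses, had 1084 and 1113 normalized counts in WT, 160.1 and 139 in KO-1, and 277 and 241 in KO-2. Krt7, a keratin, had 296 and 339 normalized counts in WT, 13.5 and 25.6 in KO-1, and 16.8 and 27.4 in KO-2. Elf5, which defines the lineage, had 4.03 and 0 normalized counts in WT, 0 and 1.28 in KO-1, and 0 and 0 in KO-2 and was thus close to 0 in both groups. The list summed to 2639 and 2634 normalized counts in WT and 1453 to 1638 in KO. Fibroblast and feeder genes, from the cells withdrawn at the start, had 3 called lower and 1 higher of 18 (8 and 1 by limma-voom). Col5a1, a fibrillar collagen and the most abundant member, had 8992 and 8556 normalized counts in WT, 1096 and 1188 in KO-1, and 1102 and 999 in KO-2. Col1a1, the main fibrillar collagen of fibroblasts, had 1644 and 1522 normalized counts in WT, 282 and 313 in KO-1, and 717 and 658 in KO-2. Pdgfrb, a growth factor receptor of mesenchyme, had 442 and 472 normalized counts in WT, 18.04 and 16.7 in KO-1, and 18.2 and 51.1 in KO-2. These 3 were lower in every KO library, Col1a1 more so in KO-1. Col5a2, a further collagen, was called higher with 90.6 and 66.9 normalized counts in WT, 741 and 688 in KO-1, and 937 and 900.2 in KO-2. The summed level was 13432 and 12825 in WT, 3616 and 3983 in KO-1 and 5550 and 5212 in KO-2. Of the markers that define fibroblasts, Postn had 4.03 and 5.05 normalized counts in WT, 15.8 and 6.41 in KO-1, and 14.0 and 10.9 in KO-2. Dcn had 22.1 and 25.3 normalized counts in WT, 2.26 and 0 in KO-1, and 2.8 and 3.65 in KO-2. Neither passed 30 normalized counts in any day 4 library, and the part that feeders had in the matrix results was not tested. Mitochondrially encoded transcripts made up 0.938% and 0.813% of the counts in WT, 1.33% and 1.03% in KO-1 and 1.49% and 1.75% in KO-2, and 7 of 17 were called higher and none lower. The part of RNA quality in the other results was not tested.

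Of the 809 genes called lower at day 4, 123 were called lower at day 2 as well (2.37% of all genes were), 46 at day 0 (0.879% of all genes), and 633 were called at neither day. Of the 760 called higher, 401 were also called higher at day 2 (4.01% of all genes were), 165 at day 0 (1.73% of all genes), and 316 at neither. The difference between the effect of the KO at day 4 and that at day 2, for which no library is shared, was tested across all genes: 1328 genes (6.41%) differed, 445 further higher (2.15%) and 883 further lower (4.27%) at day 4. The split varied with the processing, with 560 higher and 766 lower after quantile normalization, 395 and 948 with libraries centred on their median, and 1400 and 1466 by limma-voom, which also changes the unit and the weights. For genes chosen by their values at day 4, the choice largely fixes the direction of this difference, and their values below are a description. Against day 0, 1435 genes (6.93%) differed, 581 further higher (2.81%) and 854 further lower (4.13%).

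**Figure D3:**
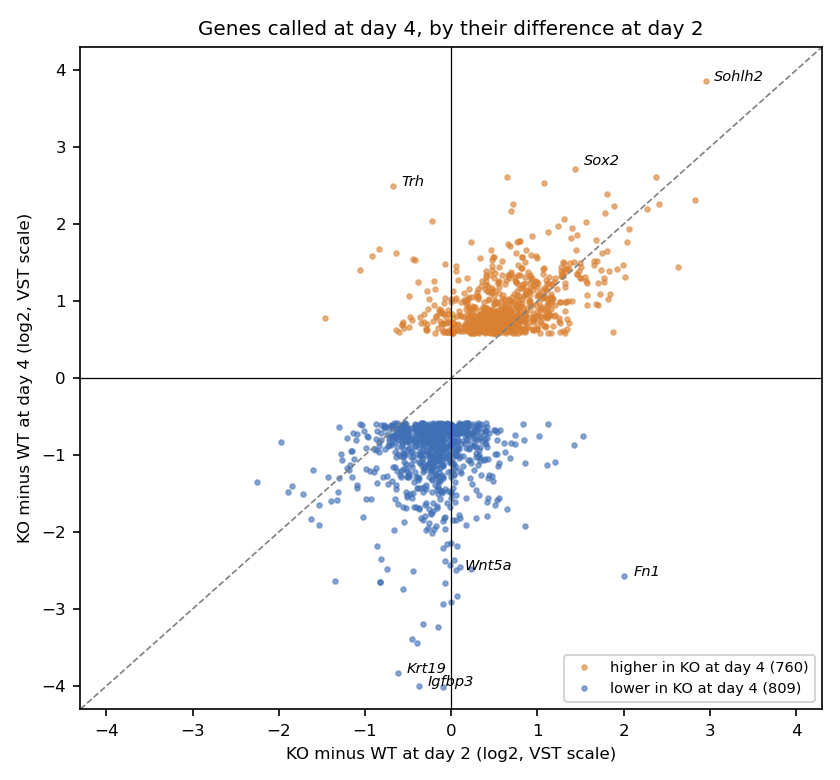
Difference between KO and WT (log2, on the deposited scale) at day 2 (x axis) and day 4 (y axis) for the 1569 genes called at day 4; orange points were called higher and blue points lower, and the dashed line marks equal differences. Of the 809 blue points, 123 were called lower at day 2 as well, and of the 760 orange points 401 were called higher; Fn1 and Trh are among those in which the sign differs between the days.

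The courses differed among the largest falls. The mean normalized counts of Igfbp3 over the 3 days were 248, 601 and 23166 in WT, and 247, 365 and 911 in KO. The KO minus WT difference at day 4 exceeded that at day 2 by -3.63 ± 0.12 (SE, log2, adjusted p = 1.03e-14, limma). Wnt5a, at 14.6 in WT and 20.3 in KO at day 2, had the corresponding value of -2.54 ± 0.07. Fn1 was the case with the greatest turn: in WT it stood at 20247, 3838 and 51593 and in KO at 27535, 17338 and 8163. KO was thus above WT at day 2 and below at day 4, and the change was -4.58 ± 0.13 (adjusted p = 5.39e-16, limma). Of the mesenchymal list 6 genes were called higher in KO at day 2 and none lower, and 10 were further lower at day 4. Zeb1, a repressor of E-cadherin, had 29.3 in WT and 865 in KO at day 2 and 125 and 604 at day 4, so that it was higher in KO at both days, by a smaller fold at day 4. Of 23 epithelial genes 14 were already called lower in KO at day 2 and none higher.

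**Figure D4:**
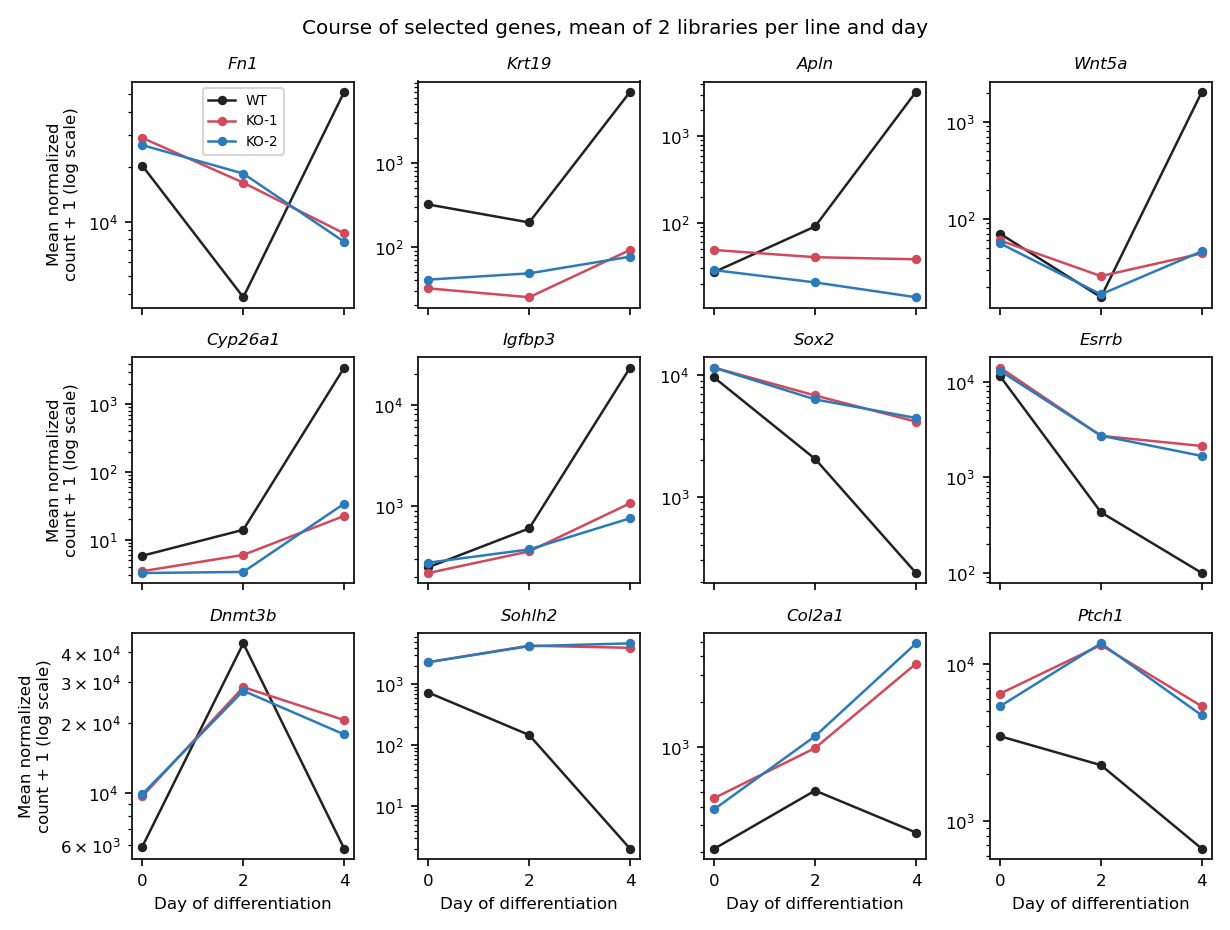
Mean normalized counts plus 1 (log axes that differ by panel and do not start at 0) at day 0, 2 and 4 in WT, KO-1 and KO-2, with 2 libraries behind each point, for 12 genes named in the text. Levels of Krt19, Apln, Wnt5a, Cyp26a1 and Igfbp3 in WT stand far above both clones at day 4, and those of Sox2, Esrrb and Sohlh2 far below.

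The gained genes had their own courses. Of the 24 naive genes 15 were already called higher in KO at day 2 and none lower. Sohlh2 averaged 731, 146 and 1.01 in WT and 2299.9, 4253 and 4318 in KO, so that the WT mean was lower at each later day and the KO mean was not. Dnmt3b stood at 5907, 43758 and 5779.7 in WT and 9799, 27929 and 19192 in KO. At day 2 it was lower in KO than in WT and at day 4 higher, a change of 2.26 ± 0.10 (adjusted p = 1.75e-12, limma). Of the formative list 9 of 17 genes were called lower in KO at day 2 and 1 higher, and 8 of the 17 were further higher at day 4. Sox2 and Col2a1 were further higher than at day 2 by 1.29 ± 0.08 and 1.97 ± 0.15, whereas Ptch1, Esrrb, Dnajc6 and Ntn1, high in KO from day 2 or before, were not called different between the days. Of the germline list 17 of 40 genes were further higher at day 4 than at day 2 and 1 further lower, against 2.15% and 4.27% of all genes. At day 2, 7 of the list were called higher in KO and 4 lower, and at day 0 2 higher and 4 lower. A further higher effect can thus include members that stood below WT before.

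The test of KO-1 against KO-2 called 52 genes (0.251%) at day 4, 32 higher in KO-1 (0.155%) and 20 lower (0.0966%). The count depended on the fit, with 462 by limma-voom and 0 when limma was fitted to the 4 KO libraries alone, where 4471 genes had an unadjusted p under 0.05. Tfcp2l1, a naive factor, had 434 and 393 normalized counts in WT, 2788 and 2317 in KO-1, and 951 and 1105 in KO-2. H13, an intramembrane protease that is imprinted, had 1242 and 1243 normalized counts in WT, 594 and 677 in KO-1, and 1550.5 and 1614 in KO-2. Fndc3c1, a gene on the X chromosome, had 2338 and 2079 normalized counts in WT, 642 and 597 in KO-1, and 181 and 192 in KO-2. These 3 were chosen for the size of their clone difference, and the KO-1 and KO-2 libraries did not overlap in any. Fndc3c1 and Tfcp2l1 were called different from WT in the pooled comparison, while H13 was not. Zbed6, a transposon-derived repressor, had 1086 and 1006 normalized counts in WT, 1620.3 and 1217 in KO-1, and 563 and 653 in KO-2. Tmsb4x, which binds actin monomers and is X-linked, had 3035 and 3649 normalized counts in WT, 815 and 904 in KO-1, and 1871 and 1826 in KO-2. Zbed6 lay on both sides of WT in the 2 clones, and Tmsb4x below WT in both. Genes called higher in KO-1 had a median transcript length of 10775 bases and those called lower 1514.5, against 3471 for genes not called between clones, and with the trend of length removed from each library 22 were called, an alternative chosen after seeing the data.

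**Figure D5:**
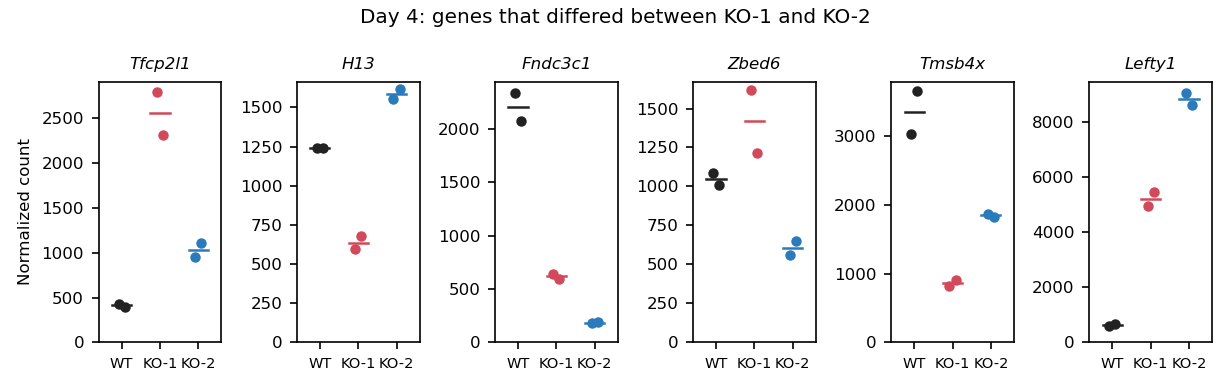
Normalized counts (linear axes from 0, scaled for each gene) in WT, KO-1 and KO-2 at day 4 for the 5 genes with the largest clone differences and Lefty1; points are single libraries and lines the mean of 2. KO-1 and KO-2 do not overlap in any of the 6, which for the 5 follows largely from their choice by size.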

How the data were processed

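Poly-A RNA-seq libraries were prepared by a sequencing company, and their reads were trimmed by the authors with Trim Galore 0.6.7, aligned to mm39 with STAR 2.7.11a, counted with featureCounts 2.0.6 and transformed with DESeq2 1.42.0, per the labels and methods. The authors deposited variance-stabilized (VST) log2 values per gene for all 18 libraries. The transformation was inverted to counts, which came out whole within 0.01 for 100% of values. Of low counts, 73.1% to 76.0% were even in the day 4 libraries, so that mates of a pair may have been counted apart, which would double every count and make counting intervals too narrow. The study's methods speak of counting read fragments, and the cause of the even counts was not tested. Limma 3.58.1 (R 4.3.3) was fitted with a mean-variance trend to the VST values of all libraries in 6 groups of genotype and day (9 for clones), with Benjamini-Hochberg adjustment over 20703 genes. Limma-voom on the recovered counts was an alternative, since the deposited unit was log2. A group at 0 was bounded by 3 counts per library. On simulated data with 200 changed genes, 147 were called from VST values and 195 by voom, with 0 and 5 unchanged genes called. The simulated libraries were drawn independently around a common mean for each gene. Changes were placed only in genes above a set mean count, and the clones were given no difference. These counts therefore do not cover weakly expressed genes or the spread between the real clones. A permutation of 4 against 2 libraries cannot go below p = 0.0667. The smallest correlation between KO libraries was 0.974.

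The members and gene lists were chosen with earlier results of these data known. Named were the 15 largest falls and rises outside the 20 factors with no overlap of the groups, Nsd1, the 5 largest clone differences, the 4 members of each list with the largest differences, and members that define a list; other names were chosen after values were seen. Replicate numbers did not pair the samples (correlations of replicate differences of 0.351, -0.256 and -0.497). Transcript lengths were from GENCODE M21, which matched 99.5% of genes. Figures were drawn with matplotlib.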

Additional observations from a re-analysis of the deposited data

Results flagged for a closer look

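Between day 2 and day 4 the KO effect differed for 1328 genes and between day 0 and day 4 for 1435, by the tests of the differences themselves. Among the 30 genes with the largest differences at day 4, the change from day 2 to day 4 was -4.58 on the log2 scale for Fn1, -3.63 for Igfbp3, -3.22 for Krt19, -3.08 for Cyp26a1, -3.04 for Gbp2b, -2.93 for Gbp2, -2.91 for Alox15, -2.89 for Aplnr, -2.86 for Apln, -2.59 for Evx1, -2.54 for Wnt5a, -2.07 for Sfn, -1.82 for Slc16a10, -1.82 for Hmga2 and -1.29 for Krt8. These genes were chosen for their size at day 4, which largely fixes the sign of this change. Among the rises it was 3.17 for Trh, 1.97 for Col2a1, 1.54 for Rragd, 1.48 for Col18a1, 1.46 for Klhl13, 1.29 for Sox2, 0.90 for Sohlh2 and 0.75 for Piwil2, while the other 7 were not called different between the days.

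In 6 of the 120 named genes, 1 of the 4 KO libraries stood apart by Dixon's test, which chance gives in about 1 of 20 groups. Pdgfrb, the mesenchymal receptor, was at 8.92 on the deposited scale in KO-2 replicate 2, and Comp, a cartilage matrix protein, at 8.83 in KO-1 replicate 2. The other 4 held 0 to a few reads in KO: Hoxb1 at 8.47 in KO-2 replicate 2, Zscan4b at 8.45 in KO-1 replicate 2, Tdpoz3 at 8.43 in KO-2 replicate 1 and Duxf3 at 8.36 in KO-1 replicate 1.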

How the results depend on the processing

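The 30 genes with the largest differences kept direction and call under every alternative computed for them (540 of 540 values). This follows largely from their choice by call, size and lack of overlap in the same libraries. Of 2157 values over all 120 named genes, most of them also chosen by size, 2137 kept both, 7 lost the call, 13 gained it and none reversed. These totals include the fits that leave out 1 WT library. DEGs at day 4, the genes called there, moved with the scale and the size threshold: limma-voom gave 4957 (2266 higher, 2691 lower), limma-voom on thinned counts 4643 (2113 and 2530), and a log2 threshold of 1 gave 553 (253 and 300). For the KO effect at day 4 against day 2, limma-voom gave 2866 (1400 higher, 1466 lower), and for the KO effect at day 4 against day 0 3085 (1427 and 1658). The split of the former moved from 33.5% to 48.8% higher, with a median over all genes of 0.13. Clones at day 4 gave 462 calls by limma-voom, 0 by limma with the 4 KO libraries alone (4471 genes at an unadjusted p under 0.05) and 22 with the length trend removed. With 1 KO library left out in turn, day 4 calls ranged from 1555 to 1618 (higher 731 to 804, lower 796 to 828). Those of day 4 against day 2 ranged from 1308 to 1382 (higher 448 to 464, lower 860 to 926). Against day 0 the range was 1443 to 1472 (higher 585 to 602, lower 851 to 887). Leaving out 1 WT library leaves 1 in its group, whose spread would come from the other groups alone, and no separate count is given for it. KO-1 alone gave 1674 day 4 calls and KO-2 alone 1575. The replicate block gave 1568 day 4 calls (760 higher, 808 lower), 1316 against day 2, 1431 against day 0 and 51 between clones, and the numbers did not pair the samples. With 2 WT libraries and 1 WT line, effects of the line and of the genotype cannot be told apart.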

Other observations

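Imprinted genes, which are expressed from 1 parental allele, had 8 of 39 called higher and 3 lower (12 and 7 by limma-voom). Jade1, a subunit of a histone acetyltransferase complex, had 946 and 889 normalized counts in WT, 5274 and 4502 in KO-1, and 4526 and 4716 in KO-2. Sfmbt2, a Polycomb-associated protein of the placenta, had 2585 and 2337 normalized counts in WT, 9945 and 8341 in KO-1, and 6342 and 6744 in KO-2. H19, the maternally expressed noncoding RNA, had 203 and 181 normalized counts in WT, 503 and 563 in KO-1, and 669 and 539 in KO-2, and Peg3, a paternally expressed zinc finger gene, 15863 and 14297 normalized counts in WT, 7838 and 6182 in KO-1, and 4578 and 4977 in KO-2. H19 was higher and Peg3 lower in each KO library. Sfmbt2 was already 6384 in KO against 1262 in WT at day 0 and 7419 against 717 at day 2.

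Of 20 Trp53 targets and genes of apoptosis, 5 were called higher and 2 lower (6 and 5 by limma-voom), with a median of 0.31. Eda2r, a death receptor, had 608 and 629.5 normalized counts in WT, 2310.4 and 1918 in KO-1, and 1794 and 1949.9 in KO-2, and Mdm2, the ligase that degrades p53, 1882 and 1845 normalized counts in WT, 3495 and 3284 in KO-1, and 3616 and 3493 in KO-2. Perp, a desmosomal protein and p53 target, had 2512 and 2406 normalized counts in WT, 593 and 581 in KO-1, and 593 and 573 in KO-2. Cdkn1a, the cell cycle inhibitor p21, had 1559 and 1705 normalized counts in WT, 2043 and 2378 in KO-1, and 2759 and 2386 in KO-2 and was not called. Perp was lower in every KO library, and the other named members rose or were not called.

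Genes called different at day 4 were longer than others: the median transcript length was 5080 bases for those called higher and 4556 for those called lower, against 3361.5 for those not called. The sets also differed in gene type, with 96.8% and 99.1% protein coding genes against 75.9%, and the part of this in the lengths was not tested. The Tcf/Lef letters CTTTGAT, searched on both strands, were in 3.78% of the promoters of genes called higher and 3.54% of those called lower, against 3.23% of measured genes, and the T-box letters TCACACCT in 0.18% and 1.61%, against 1.17%. The T-box shares stand for 1 of 555 and 10 of 622 genes with a promoter, and their difference was not tested.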
